A study of Mus musculus with 20 samples.

Results

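Glycolysis and the response to low oxygen were followed through 38 genes in RNA of the mouse pancreas, on the day of birth (P0) and shortly before it (E18.5), in inceptor knockouts and wild-type mice. The genes were listed by symbol in 3 roles: 22 genes of glucose uptake, glycolysis and lactate handling, 5 regulators of the hypoxia-inducible factors (HIF), and 11 other HIF targets. Of these, 36 had a probe set carrying a single gene symbol, and Gpi1 and Eno1 were not analysed here. Slc16a3, a lactate exporter, lay above the array median on only 2 arrays and missed the 4 required for testing. The remaining 35 genes, among 17992 tested on the arrays, comprised 19 genes of glycolysis, all 5 regulators and all 11 other targets. Members close to the filter were Adm and Pfkfb4, which lay above the array medians (4.81 to 4.94) on 6 and 7 arrays.

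The study profiled pancreas from C57BL/6J mice of genotype Iir -/- (knockout) or Iir +/+ (wild type) on 20 Affymetrix arrays. Iir is the inceptor gene, a receptor that reduces insulin and insulin-like growth factor signalling, and appears in the annotation as Elapor1. The groups were 6 knockout and 5 wild-type arrays at P0, where the pups had been starved for 5 h, and 5 knockout and 4 wild-type arrays at E18.5, where the mothers had been starved for 2 h. Sex was not determined by the submitters, and the mean of 3 Y-linked genes was 7.42 to 7.99 on 5 arrays (1 P0 knockout, 1 P0 wild type, 1 E18.5 knockout and 2 E18.5 wild type) and 4.20 to 4.44 on the other 15. All animals lived under specific pathogen-free conditions, and nothing in the labels ties an array to its own animal or litter, so the p-values reflect sample-to-sample spread that may be technical. P0 samples carried the lower running numbers and E18.5 samples the higher ones. Age, birth, the kind of fasting and the running number therefore cannot be told apart.

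In cells, glucose enters through transporters and is split by the glycolytic enzymes into pyruvate, which either enters the mitochondria or is reduced to lactate. HIF proteins are transcription factors made of an unstable alpha subunit (Hif1a, Epas1) and a stable partner. Where oxygen is present, prolyl hydroxylases (Egln1, Egln3) mark the alpha subunit for destruction by the Vhl ligase, and where it is scarce the factor persists and raises glycolytic enzymes, glucose transporters, angiogenic factors and, as feedback, the prolyl hydroxylases themselves.

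The core DNA element that HIF binds reads ACGTG or GCGTG. It was searched on both strands in RefSeq promoter windows (assembly GRCm38.p6, 250 bases before to 50 bases after the gene start, first window per gene), with overlapping matches merged into one stretch. Windows matched 36 of the 38 genes, and none was matched for Epas1 and Ndrg1. The element was found in 28 of 36 member windows (77.8%), against 11836 of 27025 windows of all genes (43.8%). Many members were listed because they are HIF targets, so this share is a description of the list and no separate support. Among members that passed the test between the ages in both genotypes it was found in 13 of 14 windows (92.9%), all but that of Vegfa, and among the other members in 15 of 22 (68.2%). Those other members take in Gpi1, Eno1 and Slc16a3, which were not tested, and genes called in knockouts alone. They are therefore not a set without change. These are counts of letters in a fixed window, and say nothing of binding. The windows below belong to 4 genes that were lower at P0 in both genotypes and to Kdm3a, the one member that was higher in both, shown 5′ to 3′ on the gene's strand with the element in capitals.
Egln3, chr12:54203825-54204124, minus strand: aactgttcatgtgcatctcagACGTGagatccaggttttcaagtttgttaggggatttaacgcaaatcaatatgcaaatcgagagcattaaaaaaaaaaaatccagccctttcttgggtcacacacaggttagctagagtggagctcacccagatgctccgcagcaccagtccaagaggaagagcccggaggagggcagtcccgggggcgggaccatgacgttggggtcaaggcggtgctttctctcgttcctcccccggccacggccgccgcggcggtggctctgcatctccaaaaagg
Slc2a1, chr4:119108495-119108794, plus strand: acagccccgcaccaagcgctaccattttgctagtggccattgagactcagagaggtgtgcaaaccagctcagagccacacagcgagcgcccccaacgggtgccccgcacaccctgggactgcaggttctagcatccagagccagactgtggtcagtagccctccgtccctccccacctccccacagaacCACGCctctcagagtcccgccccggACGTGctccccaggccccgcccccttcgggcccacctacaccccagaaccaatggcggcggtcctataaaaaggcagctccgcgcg
Ldha, chr7:46845554-46845853, plus strand: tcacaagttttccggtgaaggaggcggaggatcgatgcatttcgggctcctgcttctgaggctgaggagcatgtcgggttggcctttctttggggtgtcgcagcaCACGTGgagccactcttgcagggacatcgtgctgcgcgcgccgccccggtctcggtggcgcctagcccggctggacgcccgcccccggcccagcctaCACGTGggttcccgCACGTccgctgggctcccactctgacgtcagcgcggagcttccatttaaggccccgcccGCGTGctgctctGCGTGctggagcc
Ankrd37, chr8:45999801-46000100, minus strand: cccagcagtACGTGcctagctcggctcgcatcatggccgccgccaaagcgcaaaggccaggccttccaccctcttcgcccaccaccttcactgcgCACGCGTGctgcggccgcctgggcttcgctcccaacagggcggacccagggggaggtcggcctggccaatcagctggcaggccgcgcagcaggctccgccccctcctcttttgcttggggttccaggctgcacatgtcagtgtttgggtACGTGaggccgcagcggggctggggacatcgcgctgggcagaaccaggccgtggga
Kdm3a, chr6:71632868-71633167, minus strand: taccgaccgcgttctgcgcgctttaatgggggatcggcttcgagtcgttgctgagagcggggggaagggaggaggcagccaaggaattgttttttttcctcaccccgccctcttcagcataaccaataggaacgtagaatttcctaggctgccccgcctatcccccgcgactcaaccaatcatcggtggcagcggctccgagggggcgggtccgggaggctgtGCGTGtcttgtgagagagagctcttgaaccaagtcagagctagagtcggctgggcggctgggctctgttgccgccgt
Ldha held 5 stretches with the element, Ankrd37 held 3, Slc2a1 held 2, and Egln3 and Kdm3a held 1 each. Both directions of change were thus seen beside windows with a match.

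Values are RMA log2 signals, in which a difference of 1 is a doubling of signal, and signals of different genes were not ranked against each other because they are not per length. Inceptor itself checked the labels: its signal was 5.58 to 6.38 in P0 knockouts against 11.07 to 12.01 in P0 wild type, and 5.79 to 6.50 in E18.5 knockouts against 11.67 to 12.06 in E18.5 wild type. Acinar markers averaged 15.10 to 16.19 and beta cell markers 8.80 to 9.46 over the arrays, so both pancreatic compartments were present on each. Markers of neighbouring tissue also appeared. The mean of 7 intestinal markers tested of 12 listed was 5.80 to 6.98 in P0 knockouts, 5.69 to 6.76 in P0 wild type, 6.35 to 9.37 in E18.5 knockouts and 6.11 to 9.03 in E18.5 wild type. All 7 intestinal markers were below 0 at P0 against E18.5 in knockouts (median -1.48) and 5 of 7 in wild type (median -0.35). Liver markers, all 14 tested, averaged 8.25 to 12.11 in P0 knockouts, 6.28 to 10.43 in P0 wild type, 8.24 to 11.60 in E18.5 knockouts and 8.68 to 10.83 in E18.5 wild type. At P0 against E18.5, 12 of 14 liver markers were above 0 in knockouts (median 0.42) and 13 of 14 below 0 in wild type (median -1.35), and in knockouts against wild type all 14 were above 0 at P0 (median 1.43) and 11 of 14 below 0 at E18.5 (median -0.59). Skeletal muscle markers (7 tested of 8) averaged 8.83 on P0 knockout replicate 4 and 8.50 on E18.5 knockout replicate 1, which also had the highest mean of nerve and adrenal markers, at 8.83. Nerve and adrenal markers (5 tested of 8) had medians of 0.15 in knockouts and -0.91 in wild type at P0 against E18.5, and of 0.70 at P0 and -0.36 at E18.5 in knockouts against wild type. The mean of 14 FOXO and starvation genes was 9.10 to 10.29 in P0 knockouts and 8.84 to 9.88 in P0 wild type, against 8.27 to 8.77 in E18.5 knockouts and 8.36 to 8.73 in E18.5 wild type. At P0 against E18.5, 11 of the 14 were above 0 in each genotype, with medians of 0.67 in knockouts and only 0.09 in wild type. Pdk4 is among them and averaged 11.56 in P0 knockouts and 11.7 in P0 wild type. Its E18.5 averages were 7.05 in knockouts and 7.07 in wild type. The part of Pdk4 in the list mean was not tested.

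The comparison of P0 with E18.5, made within each genotype, asked how the genes change around birth. Most members that passed the test were lower at P0. In knockouts 23 of 35 members passed (20 lower and 3 higher, adjusted p under 0.05 by limma over all 17992 genes), where 23% of all tested genes were called (11.7% lower and 11.3% higher). The 3 higher members in knockouts include Adm, which passed the signal filter only through 6 P0 arrays. That filter favours a gene higher at P0, so the Adm call is a description. In wild type 15 of 35 passed (14 lower and 1 higher), where 8.87% of all tested genes were called (4.1% lower and 4.76% higher). Groups did not overlap for 10 lower and 0 higher members in knockouts (6.55% and 5.9% of all tested genes), and for 17 lower and 1 higher in wild type (5.36% and 6.24%). At an unadjusted p under 0.05 there were 26 members in knockouts and 23 in wild type, against 34.9% and 24.4% of all tested genes. All 15 members called in wild type were among the 23 called in knockouts, in the same direction. The median difference over the 35 tested members was -0.50 in knockouts and -0.47 in wild type, where the median over all tested genes was -0.004 and 0.006. Pancreas RNA was measured in bulk, so fewer cells of a type and less RNA per cell cannot be told apart. Markers of cells within the pancreas differed between the ages as well. All 6 mesenchymal markers tested were above 0 at P0 in both genotypes. Macrophage markers were above 0 for 8 of 8 in knockouts and 6 of 8 in wild type. Beta cell markers were below 0 for 7 of 8 in knockouts and 4 of 8 in wild type, and acinar markers for 3 of 9 and 8 of 9. Their part in the member differences was not tested.

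The counts depended on the arrays and covariates in the fit, over all genes as well as over the members. Leaving out the 7 arrays whose intestinal or muscle markers averaged over 7, which left a single E18.5 knockout array assumed to vary like the others, gave 0 called members in knockouts and 7 in wild type, where 0.0556% and 1.5% of all tested genes were called. With the intestinal marker mean as a covariate, an alternative chosen after seeing the data, 9 members were called in knockouts and 12 in wild type (8.41% and 5.61% of all tested genes). With the mean of the FOXO and starvation genes, which does not overlap between the ages, 1 member was called in knockouts and 7 in wild type (0.461% and 3.24% of all tested genes). That mean includes Pdk4, listed below among other glucose genes, and Bnip3 and Cited2, listed among further HIF response genes. It is therefore not independent of the responses studied here. On the 3 E18.5 arrays with intestinal and muscle means of at most 7, signals lay above every P0 array for 10 of the 14 members that were lower in both genotypes. Among them were Egln3 (9.27 to 10.57 on these E18.5 arrays against a P0 highest of 8.70) and Slc2a1 (7.26 to 8.28 against 7.24). The 4 that did not clear P0 were Hk2, Vegfa, P4ha1 and Higd1a. All 14 had been picked as lower at P0 with these same arrays. For 9 of them every P0 array lay below every E18.5 array, so those had to clear P0 here. The count of 10 is therefore a description and no separate support. Neither for the 9 nor for the 10 was the matching share over all tested genes computed.

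**Figure D1:**
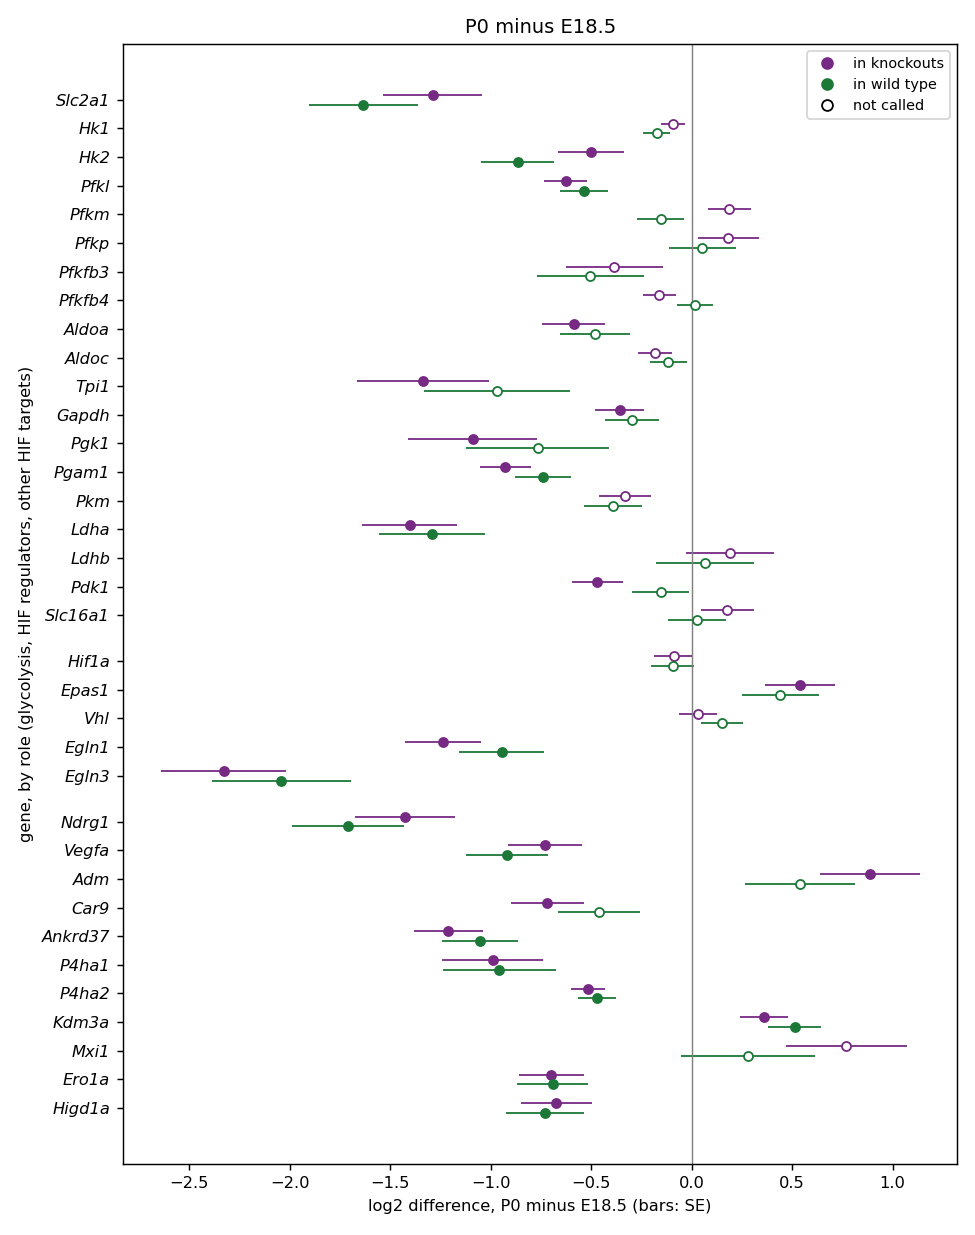
P0 minus E18.5 log2 difference of each of the 35 tested genes (points) with its SE (bars), in knockouts and in wild type, ordered by role. Filled points passed the test; most lie left of 0, with Egln3 farthest at -2.33 in knockouts and -2.04 in wild type.

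In glycolysis, 10 of 19 genes were called lower at P0 in knockouts and 5 of 19 in wild type, with none higher. Over all tested genes, 11.7% were called lower in knockouts and 4.1% in wild type, and 11.3% and 4.76% higher. The median difference of the 19 glycolysis genes was -0.39 in each genotype. That median was -0.19 in knockouts without the 7 marker-rich arrays, and -0.17 in knockouts and -0.18 in wild type with the FOXO and starvation covariate. Slc2a1, the glucose transporter of most fetal tissues, had a lowest, median and highest signal of 6.42, 6.80 and 7.24 in P0 knockouts, against 9.01, 8.28, 7.69, 8.37 and 7.26 in E18.5 knockouts. In wild type its signals were 6.35, 6.30, 6.47, 5.91 and 6.60 at P0, against 7.82, 8.17, 8.28 and 7.57 at E18.5. No P0 array reached an E18.5 array for Slc2a1, although the highest P0 knockout and the lowest E18.5 knockout nearly met. The difference was -1.29 ± 0.25 in knockouts (SE, adjusted p = 0.00118, 2.44-fold lower) and -1.63 ± 0.27 in wild type (adjusted p = 0.00218, 3.1-fold lower).

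Ldha, which reduces pyruvate to lactate, had a lowest, median and highest signal of 8.28, 8.77 and 9.07 in P0 knockouts, against 10.76, 10.60, 9.72, 10.28 and 9.43 in E18.5 knockouts. Wild-type signals of Ldha were 9.04, 8.84, 8.55, 9.07 and 8.05 at P0, against 10.01, 10.16, 10.28 and 9.55 at E18.5. All 11 P0 arrays lay below all 9 E18.5 arrays. The difference was -1.40 ± 0.24 in knockouts (adjusted p = 0.000551) and -1.29 ± 0.26 in wild type (adjusted p = 0.00665). Its partner subunit Ldhb, which favours the reverse reaction, differed by 0.19 ± 0.22 in knockouts and 0.07 ± 0.24 in wild type and was not called.

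Tpi1, triose phosphate isomerase, had a lowest, median and highest signal of 7.35, 7.92 and 8.66 in P0 knockouts, against 9.86, 9.73, 8.97, 9.44 and 8.56 in E18.5 knockouts. Its wild-type signals were 8.25, 7.93, 7.5, 9.40 and 7.56 at P0, against 8.96, 9.17, 9.51 and 8.75 at E18.5. The ages overlapped in both genotypes, in wild type because P0 replicate 4 was as high as the E18.5 arrays. Tpi1 fell by 1.34 in knockouts (SE 0.33, adjusted p = 0.0068), and its wild-type difference of -0.97 ± 0.36 did not pass (adjusted p = 0.103).

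Of the early steps, 1 hexokinase and 1 phosphofructokinase were lower at P0 in both genotypes. Hk2, the inducible hexokinase, differed by -0.50 in knockouts (adjusted p = 0.0335) and -0.87 in wild type (adjusted p = 0.00745), whereas Hk1, the constitutive form, differed by -0.09 in knockouts and -0.17 in wild type and was not called. The Hk2 call in knockouts was lost in 11 of 37 alternatives, among them without E18.5 knockout replicate 1, 2 or 4 or P0 knockout replicate 1, 4 or 5. Pfkl, the liver-type phosphofructokinase, differed by -0.63 in knockouts and -0.54 in wild type, with its P0 arrays all below its E18.5 arrays. The muscle and platelet types Pfkm (0.19 in knockouts and -0.15 in wild type) and Pfkp (0.18 in knockouts and 0.05 in wild type) were not called. Neither were Pfkfb3 (-0.39 in knockouts and -0.50 in wild type) and Pfkfb4 (-0.16 in knockouts and 0.02 in wild type), which set the level of the phosphofructokinase activator.

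Of the later steps, only Pgam1 among the enzymes before pyruvate was called in both genotypes. Pgam1, phosphoglycerate mutase, differed by -0.93 ± 0.13 in knockouts (adjusted p = 0.000113) and -0.74 ± 0.14 in wild type (adjusted p = 0.0045), and its ages did not overlap. Aldoa, the main aldolase, was called in knockouts (-0.59) and not in wild type (-0.48, adjusted p = 0.0926). Gapdh, which oxidises glyceraldehyde phosphate, was called at -0.36 in knockouts (adjusted p = 0.0414) and differed by -0.30 in wild type (adjusted p = 0.184). Its signal was 11.454 on each of P0 knockout replicates 1, 5 and 6, P0 wild-type replicate 2 and E18.5 knockout replicate 5. The reason for these tied values was not tested. With its sign kept, the Gapdh call was lost in 14 of 37 alternatives, among them each renormalisation. Leaving out E18.5 knockout replicate 1, 2 or 4 or P0 knockout replicate 2 or 3 also lost it. With the FOXO and starvation covariate the Gapdh difference in knockouts turned to 0.072 and was not called either. Pgk1, the ATP-making phosphoglycerate kinase, was called in knockouts at -1.09 ± 0.32 (adjusted p = 0.0205) and differed by -0.77 ± 0.36 in wild type (adjusted p = 0.195), and the call was lost without E18.5 knockout replicate 1. Pdk1, which holds pyruvate back from the mitochondria, was called at -0.47 in knockouts and differed by -0.15 in wild type. The change with age was tested between the genotypes for all 35 members and none passed, so a call in knockouts alone is no evidence that the genotypes differ. Aldoc (-0.18 in knockouts and -0.12 in wild type), the pyruvate kinase Pkm (-0.33 in knockouts and -0.39 in wild type) and the lactate carrier Slc16a1 (0.18 in knockouts and 0.02 in wild type) were called in neither.

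Some of these probe sets are less certain. The Pgk1 probe set with the highest mean carries chromosome 12 in its identifier, whereas the gene lies on X, and identifiers matched the gene's chromosome for 99.0% of 28576 autosomal probe sets. The second Pgk1 probe set, on X, averaged 9.85 in P0 knockouts, 9.85 in P0 wild type, 10.95 in E18.5 knockouts and 10.56 in E18.5 wild type, so its P0 means were also below its E18.5 means. Gapdh, Pgam1 and Hif1a are also named on probe sets with several symbols, which were not used. The other symbols there are Gm7336 for Gapdh, Gm8910 and Pgam1-ps2 for Pgam1, and Gm15283 for Hif1a. Whether the probe sets kept also detect RNA of these entries was not tested.

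Among the HIF regulators the largest difference of all members was found. Egln3, an oxygen-sensing prolyl hydroxylase and itself a HIF target, had a lowest, median and highest signal of 7.58, 7.91 and 8.70 in P0 knockouts, against 11.55, 10.78, 10.06, 10.06 and 9.27 in E18.5 knockouts. In wild type Egln3 gave 8.34, 8.45, 7.44, 8.25 and 8.0 at P0, against 9.84, 10.28, 10.57 and 9.87 at E18.5. The ages were apart on every array. The difference was -2.33 ± 0.31 in knockouts (adjusted p = 9.78e-05, 5.03-fold lower) and -2.04 ± 0.35 in wild type (adjusted p = 0.00259, 4.12-fold lower).

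Egln1, the main prolyl hydroxylase under normal oxygen, was also lower, by -1.24 ± 0.19 in knockouts (adjusted p = 0.000255) and -0.95 ± 0.21 in wild type (adjusted p = 0.0108), with ages that did not overlap. The most general alpha subunit and the ligase did not pass. Hif1a differed by -0.09 ± 0.10 in knockouts and -0.10 ± 0.11 in wild type, and Vhl by 0.03 ± 0.10 in knockouts and 0.15 ± 0.11 in wild type. Epas1, the alpha subunit prominent in blood vessels, was higher at P0 in knockouts (0.54 ± 0.17, adjusted p = 0.0312) and did not pass in wild type (0.44 ± 0.19, adjusted p = 0.163). The Epas1 call was lost in 9 of 37 alternatives, among them without E18.5 knockout replicate 1, 2 or 3 or P0 knockout replicate 1 or 2. All 6 endothelial markers were above 0 in both age comparisons, with medians of 0.24 in knockouts and 0.30 in wild type and none called, and their part in the Epas1 value was not tested.

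**Figure D2:**
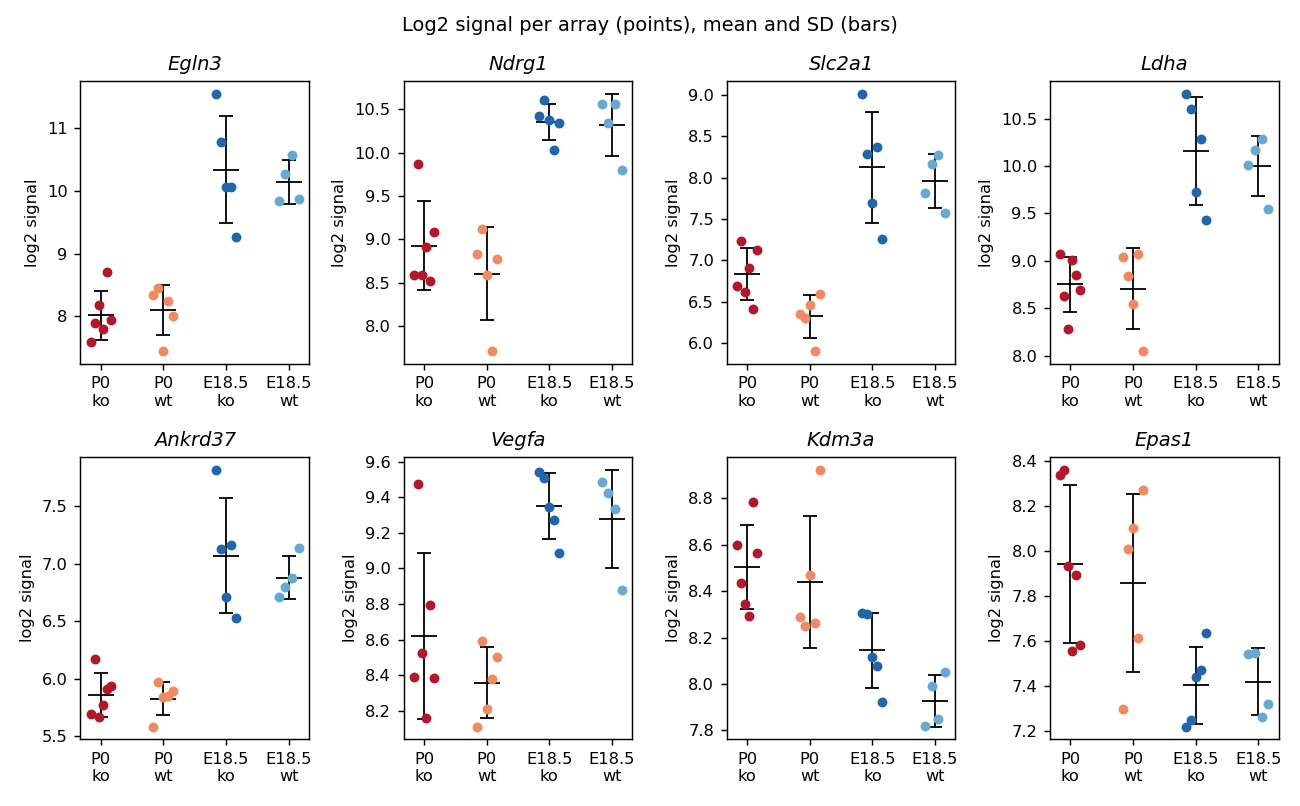
Log2 signal on each array (points), with group mean and SD (bars), of 8 members in P0 knockouts, P0 wild type, E18.5 knockouts and E18.5 wild type. Egln3, Slc2a1, Ldha and Ankrd37 show every P0 array below every E18.5 array, whereas Kdm3a and Epas1 lie higher at P0 on most arrays.

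Of the 11 other HIF targets, 8 were called lower and 2 higher at P0 in knockouts, and 7 were called lower and 1 higher in wild type. Over all tested genes, 11.7% were called lower and 11.3% higher in knockouts, and 4.1% lower and 4.76% higher in wild type. The higher calls are too few to be set apart from these shares. Median differences of the 11 targets were -0.70 in knockouts and -0.69 in wild type. The median in knockouts was -0.25 without the 7 marker-rich arrays, and with the FOXO and starvation covariate it was -0.30 in knockouts and -0.45 in wild type. Ndrg1, a differentiation and stress gene, had a lowest, median and highest signal of 8.52, 8.75 and 9.88 in P0 knockouts, against 10.43, 10.60, 10.38, 10.03 and 10.35 in E18.5 knockouts. Its wild-type signals were 8.84, 9.12, 8.59, 7.72 and 8.78 at P0, against 10.56, 10.35, 10.56 and 9.80 at E18.5. Within each genotype the ages did not overlap, and across genotypes P0 knockout replicate 2 passed E18.5 wild-type replicate 4. Ndrg1 differed by -1.43 ± 0.25 in knockouts (adjusted p = 0.000697) and -1.71 ± 0.28 in wild type (adjusted p = 0.00184).

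Ankrd37, an ankyrin repeat protein induced by HIF, differed by -1.21 ± 0.17 in knockouts (adjusted p = 0.000135) and -1.05 ± 0.19 in wild type (adjusted p = 0.00345), and its signal of 5.67 to 6.17 in P0 knockouts and 5.59 to 5.98 in P0 wild type lay below the 6.53 to 7.82 of E18.5 knockouts and the 6.71 to 7.14 of E18.5 wild type. P4ha1 and P4ha2, the collagen prolyl hydroxylase subunits, differed by -0.99 and -0.52 in knockouts and by -0.96 and -0.47 in wild type. The P4ha1 call in wild type (adjusted p = 0.0408) was lost in 15 of 37 alternatives, among them on leaving out E18.5 knockout replicate 4 or any wild-type array except E18.5 replicate 4. Vegfa, the angiogenic growth factor, differed by -0.73 ± 0.18 in knockouts (adjusted p = 0.00821) and -0.92 ± 0.20 in wild type (adjusted p = 0.0101). P0 knockout replicate 2, at 9.47 against 8.16 to 8.79 on the other P0 knockout arrays, kept the Vegfa ages overlapping in knockouts. Ero1a, the endoplasmic reticulum oxidase listed as Ero1l, differed by -0.70 in knockouts and -0.69 in wild type, and Higd1a, a mitochondrial protein, by -0.67 in knockouts and -0.73 in wild type. Wild-type calls of Ero1a were lost without E18.5 wild-type replicate 1, 2 or 3, and those of Higd1a without E18.5 wild-type replicate 2, 3 or 4 or P0 wild-type replicate 3 or 5. Car9, a carbonic anhydrase of the cell surface, was called in knockouts (-0.72) and not in wild type (-0.46, adjusted p = 0.169).

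Other targets went the other way. Kdm3a, a histone demethylase, was higher at P0 by 0.36 ± 0.12 in knockouts (adjusted p = 0.0348) and by 0.51 ± 0.13 in wild type (adjusted p = 0.0214). The Kdm3a call was lost in 12 of 37 alternatives in knockouts and 8 of 37 in wild type, among them the replicate block in both, any of E18.5 knockout replicates 3 to 5 or P0 knockout replicates 1, 5 and 6 left out, and any of E18.5 wild-type replicates 1 to 3 left out. Its wild-type groups did not overlap, at 8.29, 8.25, 8.47, 8.26 and 8.92 at P0 against 7.82, 7.99, 7.85 and 8.05 at E18.5. Adm, the vasodilator adrenomedullin, was higher at P0 in knockouts (0.89 ± 0.25, adjusted p = 0.0146) and did not pass in wild type (0.54 ± 0.27, adjusted p = 0.24). Adm lay above the array median on 4 knockout and 2 wild-type arrays at P0 and on no E18.5 array, so it was tested only because of the age at which it is high, and its call is a description. Mxi1, a MYC antagonist, differed by 0.77 in knockouts and 0.28 in wild type without passing (adjusted p = 0.0758 and 0.666), measured by a probe set whose deposited symbol, Gm10197, was updated to Mxi1. The probe set deposited as Mxi1 averaged 6.55 in P0 knockouts, 6.45 in P0 wild type, 6.34 in E18.5 knockouts and 6.29 in E18.5 wild type.

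Means over the members of a role give each array's level. Averaged per array, the 19 glycolysis genes lay at 7.08 to 7.42 in P0 knockouts and 7.05 to 7.31 in P0 wild type, against 7.37 to 8.06 in E18.5 knockouts and 7.49 to 7.86 in E18.5 wild type. The 11 other HIF targets averaged 7.58 to 7.86 in P0 knockouts and 7.37 to 7.67 in P0 wild type, against 7.82 to 8.52 in E18.5 knockouts and 7.90 to 8.11 in E18.5 wild type. E18.5 knockout replicate 1 had the highest mean in all 3 roles (8.06, 8.96 and 8.52), and it is the array with the high muscle and nerve markers. E18.5 knockout replicate 5, with the lowest intestinal mean and the highest liver mean (11.60) of its group, was the lowest of the E18.5 knockouts in all 3 roles (7.37, 8.40 and 7.82). The part of neighbouring tissue in these role means was not tested.

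**Figure D3:**
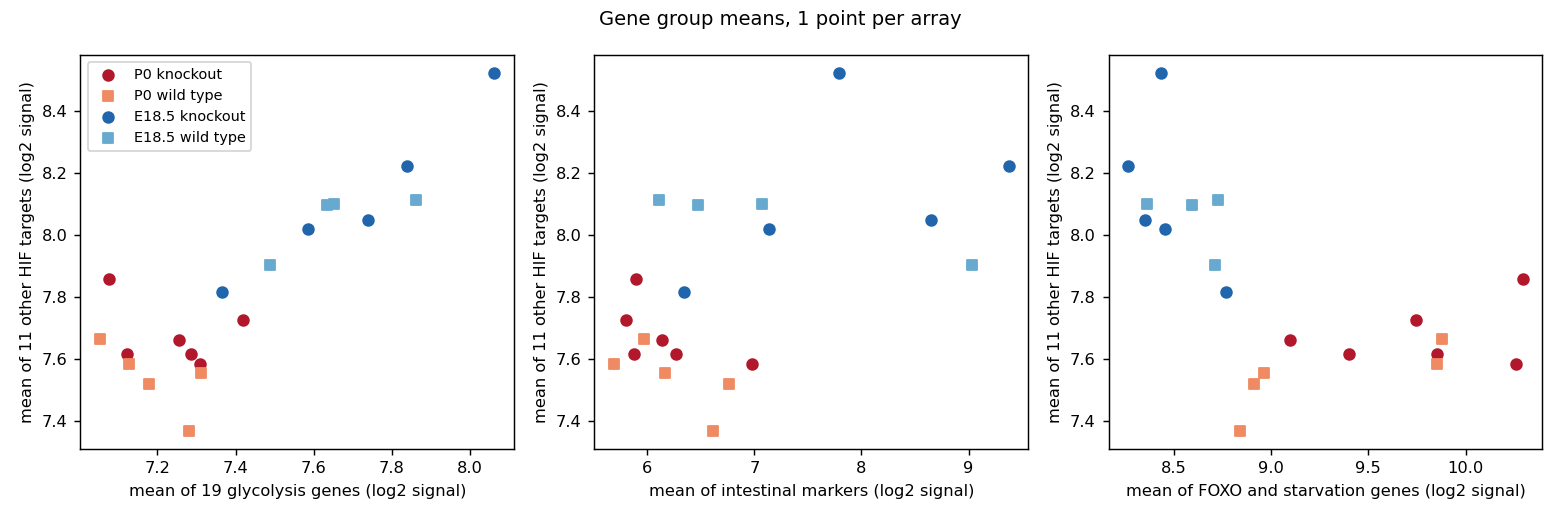
Mean log2 signal of the 11 other HIF targets on each array (vertical axes) against the means of the 19 glycolysis genes, the intestinal markers and the FOXO and starvation genes (horizontal axes, log2 signal), with P0 and E18.5 knockouts and wild type marked apart. P0 arrays lie at 7.86 or lower on the vertical axis and E18.5 arrays at 7.82 or higher, and the FOXO and starvation means of the ages do not overlap.

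The knockout was compared with wild type at each age, averaged over both ages, and as the difference of its effect between the ages. No member passed the test in any of these 4 comparisons with limma. Over all tested genes, 2 were called at P0 (0.0111%), 2 at E18.5 (0.0111%), 3 on average (0.0167%) and 0 for the difference (0%). At an unadjusted p under 0.05 there were 2 members at P0, 0 at E18.5, 0 on average and 1 for the difference, where the share of all tested genes was 8.77%, 5.45%, 6.56% and 6.99%. No member had knockout and wild-type groups that did not overlap at either age, as 0.272% of all tested genes had at P0 with knockouts higher and 0.239% with knockouts lower, and 1.74% and 0.706% at E18.5.

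At P0, the median knockout minus wild-type difference was 0.02 over the 19 glycolysis genes, -0.03 over the regulators and 0.14 over the other targets, against 0.005 over all tested genes. The smallest unadjusted p belonged to Hk2, with a lowest, median and highest signal of 5.19, 5.52 and 6.09 in P0 knockouts against 5.16, 4.99, 5.38, 4.93 and 5.31 in P0 wild type. Every P0 knockout array lay above the wild-type mean, but the groups overlapped and the difference of 0.39 ± 0.16 did not pass (adjusted p = 0.549). Slc2a1 differed by 0.51 ± 0.25 (adjusted p = 0.571), with all 6 knockout arrays above the wild-type mean and the lowest knockout signal, 6.42, inside the wild-type range of 5.91 to 6.60. Pfkm had a lowest, median and highest signal of 5.78, 6.06 and 6.57 in P0 knockouts against 6.00, 5.85, 5.81, 5.84 and 5.90 in P0 wild type. Its difference was 0.23 ± 0.11 (adjusted p = 0.568), and 0.14 without P0 knockout replicate 4, the array with the highest muscle markers at P0. Pfkfb4 differed by -0.17 ± 0.08 (adjusted p = 0.582), with 4.64, 4.74 and 4.96 as lowest, median and highest in P0 knockouts against 4.84, 5.14, 4.90, 4.88 and 4.83 in P0 wild type.

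At E18.5 the medians were 0.03, 0.12 and 0.11 for the 3 roles, against 0.02 over all tested genes. With the 7 marker-rich arrays left out they were -0.39 for glycolysis and -0.24 for the other targets. Pdk1 had the smallest unadjusted p, with 7.93, 7.86, 7.43, 7.66 and 7.36 in E18.5 knockouts against 7.39, 7.41, 7.63 and 7.12 in E18.5 wild type, a difference of 0.26 ± 0.14 (adjusted p = 0.934). Aldoc, the brain-type aldolase, gave 6.67, 6.51, 6.67, 6.36 and 6.40 in E18.5 knockouts against 6.54, 6.33, 6.39 and 6.21 in E18.5 wild type (0.16 ± 0.09, adjusted p = 0.958). Kdm3a gave 8.30, 8.30, 8.12, 8.08 and 7.92 in E18.5 knockouts against 7.82, 7.99, 7.85 and 8.05 in E18.5 wild type (0.22 ± 0.13, adjusted p = 0.958). All of these groups overlapped. Pgam1 gave 9.18, 8.98, 8.54, 8.92 and 8.57 in E18.5 knockouts against 8.37, 8.61, 8.98 and 8.51 in E18.5 wild type (0.22 ± 0.14, adjusted p = 0.958). In the same setting the Pdk1, Aldoc and Pgam1 differences turned to -0.15, -0.06 and -0.10, with a single E18.5 knockout array left.

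Averaged over the ages, the smallest unadjusted p-values belonged to Aldoc (0.12 ± 0.06), Slc2a1 (0.34 ± 0.18), Hk2 (0.21 ± 0.12) and Hif1a (0.12 ± 0.07), with adjusted p of 0.77, 0.785, 0.803 and 0.804. Hif1a, the factor's own alpha subunit, had a lowest, median and highest signal of 8.92, 9.14 and 9.37 in P0 knockouts against 9.26, 9.26, 8.85, 8.82 and 8.87 in P0 wild type. At E18.5 its signals were 9.16, 9.43, 9.11, 9.21 and 9.21 in knockouts against 9.11, 9.13, 9.10 and 9.09 in wild type. For the difference of the knockout effect between the ages, Pfkm (0.34 ± 0.16), Pdk1 (-0.32 ± 0.19), Hk2 (0.36 ± 0.24) and Pfkfb4 (-0.18 ± 0.12) came first, with adjusted p of 0.706, 0.767, 0.795 and 0.803.

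**Figure D4:**
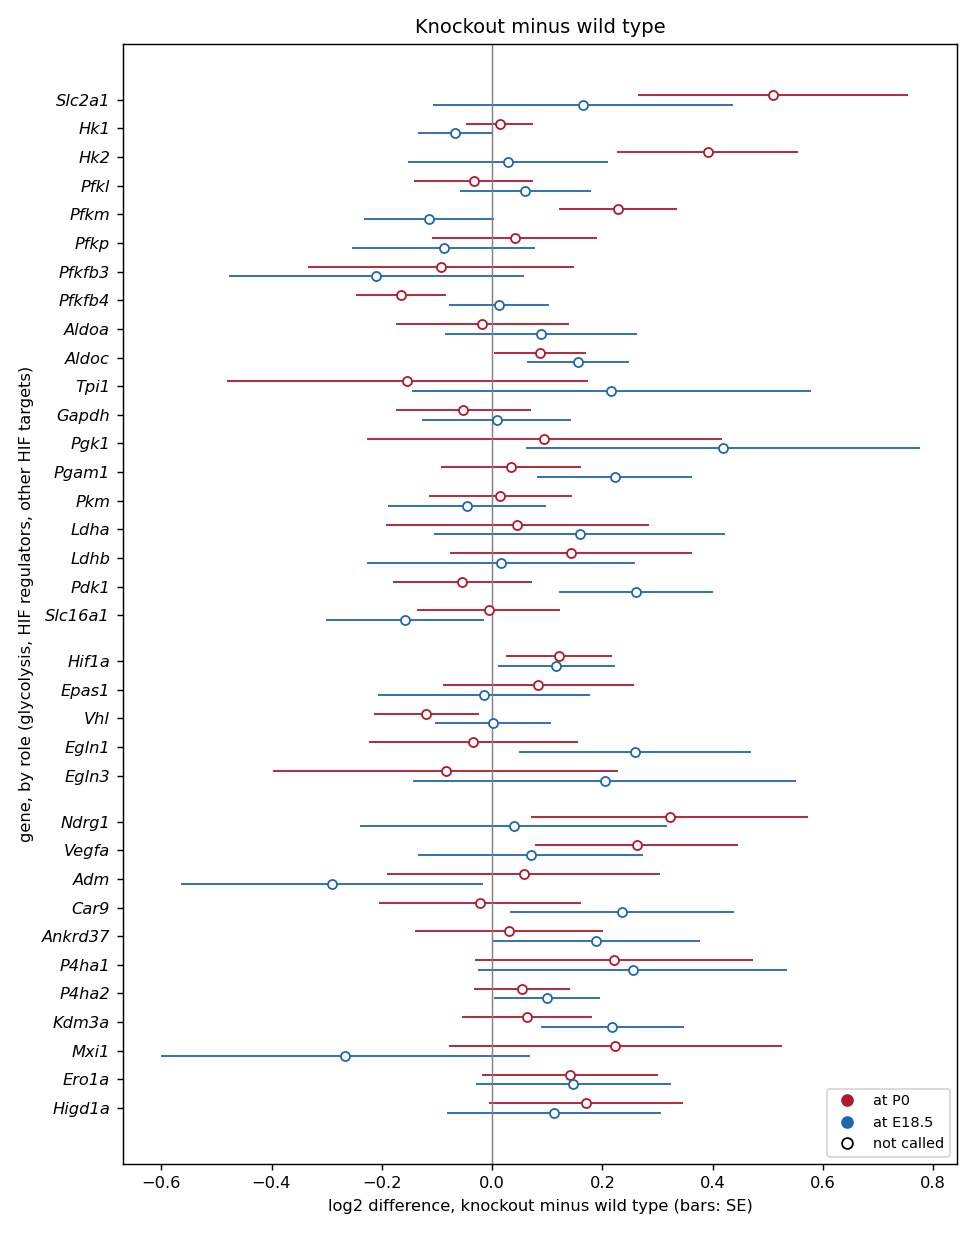
Knockout minus wild-type log2 difference of each of the 35 tested genes (points) with its SE (bars), at P0 and at E18.5, ordered by role. Every point is open because no member passed the test; the differences run from -0.17 to 0.51 at P0 and from -0.29 to 0.42 at E18.5.

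Other genes of glucose metabolism and of the HIF response, listed from general knowledge, were measured beside the members. Of 27 tested glucose genes, 2 were higher and 7 lower at P0 in knockouts and 1 higher and 4 lower in wild type, with medians of -0.12 in knockouts and -0.01 in wild type. Over all tested genes, 11.3% were higher and 11.7% lower in knockouts and 4.76% higher and 4.1% lower in wild type. Pdk4, the starvation-induced kinase that spares pyruvate, rose by 4.52 ± 0.82 in knockouts (adjusted p = 0.000869) and 4.63 ± 0.91 in wild type (adjusted p = 0.00544). Hkdc1, a hexokinase-like gene, differed by -1.01 in knockouts and -1.07 in wild type, and Gys1, glycogen synthase, by -0.79 in knockouts and -0.66 in wild type. Fbp2, a fructose bisphosphatase, was called in knockouts at -1.21. Pygl, the liver glycogen phosphorylase, differed by -0.55 in knockouts and -0.54 in wild type, called in both.

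Of 36 further HIF response genes, 4 were higher and 7 lower in each genotype, with medians of 0.01 in knockouts and -0.11 in wild type. Against the same shares of all tested genes, the 4 higher of 36 in knockouts were near the background. Hmox1, the haem-degrading enzyme that also answers to oxidants and haem, rose by 3.0 ± 0.34 in knockouts (adjusted p = 2.57e-05) and by 2.79 ± 0.38 in wild type (adjusted p = 0.000474). Rora, a nuclear receptor, was higher by 1.51 in knockouts and 1.07 in wild type. Ak4, a mitochondrial adenylate kinase, fell by 1.60 in knockouts and 1.35 in wild type, and Fam162a, a mitochondrial protein induced by low oxygen, fell by 1.37 in knockouts and 0.99 in wild type. None of the 27 glucose genes and 36 HIF response genes was called between the genotypes in any of the 4 comparisons.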

How the data were processed

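RNA from 20 pancreas samples was amplified (Ovation PicoSL WTA V2), biotin-labelled and hybridised to an Affymetrix mouse array, per the labels' protocols. The authors deposited log2 signals made with RMA in Affymetrix Expression Console 1.4.1.46, per the submitters' processing notes. They run from 2.17 to a ceiling of 19.93 that 261 to 278 probe sets share on each array. Arrays give no counts, so the number of arrays limits the precision. No 2 arrays held identical values. Of 65956 probe sets, 30604 carried 1 gene symbol, 2146 several and 33206 none, and symbols were updated to GRCm38.p6. Per gene, the single-symbol probe set with the highest mean was kept if 4 or more arrays had it above their median (17992 of 30063 genes). limma 3.58.1 in R 4.3.3 was fitted with 1 mean for each of the 4 groups, with 16 residual degrees of freedom (17.9 after moderation), two-sided tests, and Benjamini-Hochberg adjustment over all tested genes. Genes with an adjusted p under 0.05 are said to be called. The fit was tested on simulated data with independent noise, for P0 against E18.5 in wild type only. It recovered 30 of 65 log2 changes of 0.5 (46.2%), 66 of 76 changes of 1 and 56 of 59 changes of 2, with 7 false calls. Small changes can therefore be missed, and no genotype comparison was simulated. Every called member is named. The 4 members with the smallest unadjusted p are named where fewer than 4 were called, and up to 4 called genes with the largest change for each related list. The members and lists were chosen with earlier results of these data known. Alternatives covered the filter, normalisation, moderation, array weights, arrays left out, marker covariates, probe sets and a replicate block.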

Additional observations from a re-analysis of the deposited data

Results flagged for a closer look

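Within each group, every tested member and each role's mean was checked for a single array far from the others, 152 sets in all, and 7 values on 6 arrays stood apart. Chance flags about 1 in 20 sets, here 7.6, so the number is no more than chance gives. Pgk1 was 12.56 on E18.5 wild-type replicate 3, against 11.80 to 11.85 on the other arrays of that group, and Aldoa was 7.77 on the same array, against 6.95 to 7.08. Egln1 was 8.34 on P0 knockout replicate 3, against 9.04 to 9.25. Aldoc was 6.11 on P0 knockout replicate 2, against 6.32 to 6.45. Pfkfb4 was 5.14 on P0 wild-type replicate 2, against 4.83 to 4.90, and 5.17 on E18.5 knockout replicate 1, against 4.82 to 4.89. The mean of the other HIF targets was 7.90 on E18.5 wild-type replicate 4, against 8.10 to 8.11.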

How the results depend on the processing

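No member was called between the genotypes under any alternative or with any single array left out. For P0 against E18.5, the 23 members called in knockouts became 0 without the 7 marker-rich arrays, 1 with the FOXO and starvation mean as covariate and 9 with the intestinal mean as covariate, and the 15 called in wild type became 7, 7 and 12. Calls over all tested genes fell in the same settings to 10, 83 and 1513 in knockouts (4139 in the reported fit) and to 262, 583 and 1009 in wild type (1595). Leaving out 1 array at a time gave 20 to 23 called members in knockouts and 11 to 16 in wild type. The share of all tested genes called then ran from 18.3% to 24.4% in knockouts and from 3.75% to 10.1% in wild type. The cause of these losses was not tested. Without the marker-rich arrays the sign turned for Pdk1 (-0.147), Aldoc (-0.064) and Pgam1 (-0.105) at E18.5, for Slc2a1 averaged over the ages (-0.148) and for Pdk1 in the difference of effects (0.076). With the FOXO and starvation covariate, Gapdh between the ages in knockouts turned to 0.072. Slc2a1, Egln3, Ndrg1 and Ankrd37 were called in wild type in each of 37 alternatives. Deviations from the group mean were compared between same-numbered samples of different groups: 27 pairs correlated at -0.305 to 0.245, 8 of them over 0.1. Within an age, knockout and wild-type samples of the same number correlated at 0.093 to 0.224 at E18.5 and at -0.031 to 0.245 at P0. The pooled range mixes pairs within and across ages, so it does not settle whether samples of an age were paired. With a replicate block, 22 members were called in knockouts and 12 in wild type, where 19.6% and 6.26% of all tested genes were called. The fit on the arrays compared alone gives no value for the averaged comparison and the difference of effects. The alternatives on covariates (intestinal, acinar, FOXO and starvation) and on the second probe sets of Pgk1 and Mxi1 were chosen after seeing the data. Array number and the ceiling limit the precision.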
